A study of Rattus norvegicus with 6 samples.

Results

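Glucose entry and the first steps of its breakdown were examined in the diaphragm of normal and diabetic rats through 10 genes. They encode the glucose transporters Slc2a4 (GLUT4) and Slc2a1 (GLUT1), the hexokinases Hk1 and Hk2, the phosphofructokinase isoforms Pfkl and Pfkp, and the enzymes Pfkfb1, Pfkfb2, Pfkfb3 and Pfkfb4, which make and break down fructose 2,6-bisphosphate. Every probe set that the platform annotation assigns to exactly 1 of these genes was used, which gave 19 of the 15923 probe sets on the array and 10 of its 10411 genes. Of these, 16 are ordinary probe sets and 3 are control probe sets of the array maker for hexokinase that the annotation assigns to Hk1. A probe set is the group of oligonucleotides that together report 1 transcript, and its value here is the linear signal that MAS 5.0 gives after scaling each array.

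Total RNA came from the left costal hemidiaphragm of 3 normal and 3 diabetic male Wistar rats, with 1 array per rat. The diabetic rats received 60 mg/kg of streptozotocin into the peritoneum at 8 weeks of age, and the normal rats received the citrate buffer in which it was dissolved. Muscle was taken 4 weeks later after an overnight fast, and no rat was treated with insulin or an oral glucose-lowering drug. Streptozotocin is a toxin of the pancreatic beta cell, so effects of lost insulin, of high glucose, of weight loss and of the drug itself cannot be told apart in this model. The median signal was 180.5 in normal rat 3 and 179.1 in diabetic rat 2, against 167.1 to 168.7 on the other 4 arrays. Markers of skeletal muscle were bright on every array, and none of the 4 liver markers had a mean signal above the filter, although Alb (247.4) and Ttr (116) were above its level of 105.8 on the array of normal rat 3. The GAPDH control probe sets, which report RNA integrity and labelling along a transcript, set the same 2 arrays apart. Their 5′/3′ signal ratio was 0.788 in normal rat 3 and 0.673 in diabetic rat 2, against 0.249 to 0.369 on the other 4 arrays. The β-actin 5′/3′ ratio was also highest on these 2 arrays, at 0.724 and 0.853, but normal rat 1 was close at 0.678. The authors reported RNA integrity numbers in a narrow, high range for these samples. The GAPDH 3′/5′ ratios that they reported ended lower than those found here, 1.27 to 4.02. The GAPDH ratio did not separate the groups (2-sided exact permutation test, p = 0.8).

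Glucose enters muscle fibres by facilitated diffusion. GLUT1 sits in the cell membrane and provides basal entry, whereas GLUT4 is held in intracellular vesicles that move to the membrane on insulin or contraction. Hexokinase then traps glucose as glucose 6-phosphate, with hexokinase II the insulin-regulated isoform of muscle and hexokinase I the more widespread one. Phosphofructokinase commits fructose 6-phosphate to glycolysis and is activated by fructose 2,6-bisphosphate, whose level is set by the bifunctional Pfkfb enzymes. Pfkfb1 was described in liver and skeletal muscle, Pfkfb2 in heart, Pfkfb3 is inducible and rich in kinase activity, and Pfkfb4 was described in testis.

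Of the 9 member probe sets bright enough to be tested, from 8 genes, 1 was called lower in diabetic diaphragm, the brighter Slc2a4 probe set, and none was called higher at an adjusted p under 0.05 in limma. Over all 9519 tested probe sets, 3.48% were called lower and 3.3% higher. In 2 member probe sets, of Slc2a4 and Pfkfb1, every diabetic rat lay below every normal rat, and in 1, of Pfkp, every diabetic rat lay above. Such separation was found downward in 14.4% and upward in 15.2% of all tested probe sets, and counts of 1 and 2 among 9 are given as values and not read against these shares. At an unadjusted p under 0.05, 3 of the 9 passed, against 23.9% of all tested probe sets. The median log2 fold change of the 9 was 0.01, against 0.00 over all tested probe sets. The other 7 ordinary probe sets, all 4 of Pfkfb2, the only one of Pfkl and 1 each of Pfkfb3 and Pfkfb4, had a mean signal at or under the filter level of 105.8 and were not tested. In bulk muscle, fewer cells of a type and less RNA per cell cannot be told apart.

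**Figure D1:**
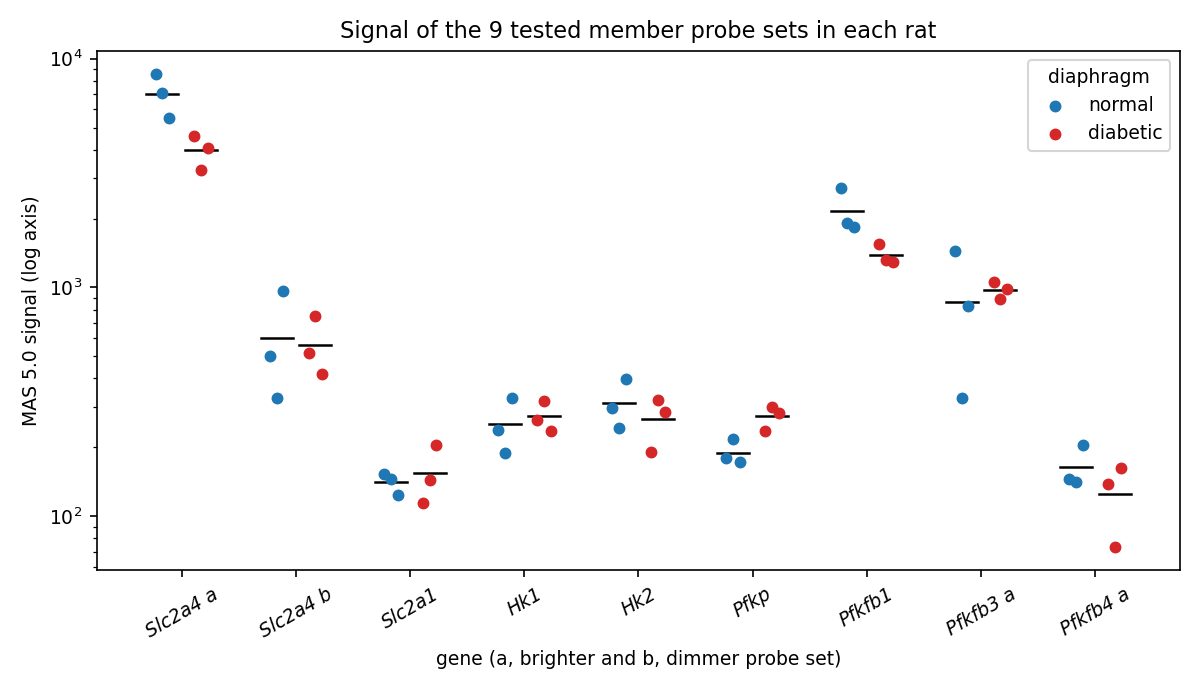
MAS 5.0 signal (log axis) of the 9 tested member probe sets in each of 3 normal (blue) and 3 diabetic (red) rats, shown in replicate order, with black lines at the group means; a and b are the brighter and dimmer probe set of a gene. The diabetic points of the brighter Slc2a4 and of Pfkfb1 lie below all normal points and those of Pfkp above, while the other 6 overlap.

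Slc2a4 encodes the insulin-responsive transporter of muscle and fat. Its brighter probe set (1367989_at) read 8540.5, 7071.7 and 5517.8 in normal rats 1 to 3 and 4570.8, 3253.0 and 4083.2 in diabetic rats 1 to 3. All 3 diabetic signals lay below the lowest normal signal. The mean was 7043 ± 1512 in normal and 3969 ± 666 in diabetic diaphragm (SD, n = 3), or 1.77-fold lower. The log2 fold change was -0.82 (SE 0.19, 95% interval -1.24 to -0.39, adjusted p = 0.031). The direction held when any 1 array was left out, with log2 fold changes of -0.98 to -0.67. The adjusted p rose to 0.108 without normal rat 1, 0.078 without normal rat 2, 0.103 without diabetic rat 2 and 0.067 without diabetic rat 3.

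The dimmer Slc2a4 probe set (1388958_a_at) did not follow it. Its signal was 500.4, 330.3 and 967.9 in normal and 517.0, 751.5 and 416.5 in diabetic rats. The groups overlapped throughout, and the 2 highest signals were those of normal rat 3 and diabetic rat 2, 1 in each group. On the log2 scale the change was 0.01 (SE 0.35, 95% interval -0.77 to 0.78, adjusted p = 0.99). The annotation gives a RefSeq mRNA as the target of the brighter probe set and another kind of sequence as that of the dimmer. The ratio of the brighter to the dimmer signal within an array was 17.1, 21.4 and 5.70 in normal and 8.84, 4.33 and 9.80 in diabetic rats. The difference in change between the 2 probe sets, -0.82 on the log2 scale, was not larger than the spread of this ratio (2-sided exact permutation test, p = 0.3, 0.92 after adjustment over 15 pairs of probe sets). Averaged over both probe sets on the log2 scale, the change of Slc2a4 was -0.41 (adjusted p = 0.19).

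Arrays with a higher GAPDH 5′/3′ ratio had a higher signal of the dimmer Slc2a4 probe set, except that normal rat 1 and diabetic rat 1 changed places in the order. Hk1 and Hk2 also had their 2 highest signals on normal rat 3 and diabetic rat 2, which made 3 of the 9 member probe sets, against 9.18% of all tested probe sets. The brighter Slc2a4 probe set read lowest on the same 2 arrays within each group. With the log2 ratio as a covariate, an alternative chosen after seeing the data, the dimmer probe set's standard error fell from 0.35 to 0.16 and its log2 fold change was 0.09 (adjusted p = 0.77). The brighter probe set then had a log2 fold change of -0.85 (SE 0.16, adjusted p = 0.013). Without normal rat 3 and diabetic rat 2 together, its log2 fold change was -0.85 and its adjusted p 0.053. The part of RNA integrity in the disagreement of the 2 probe sets was not tested.

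**Figure D2:**
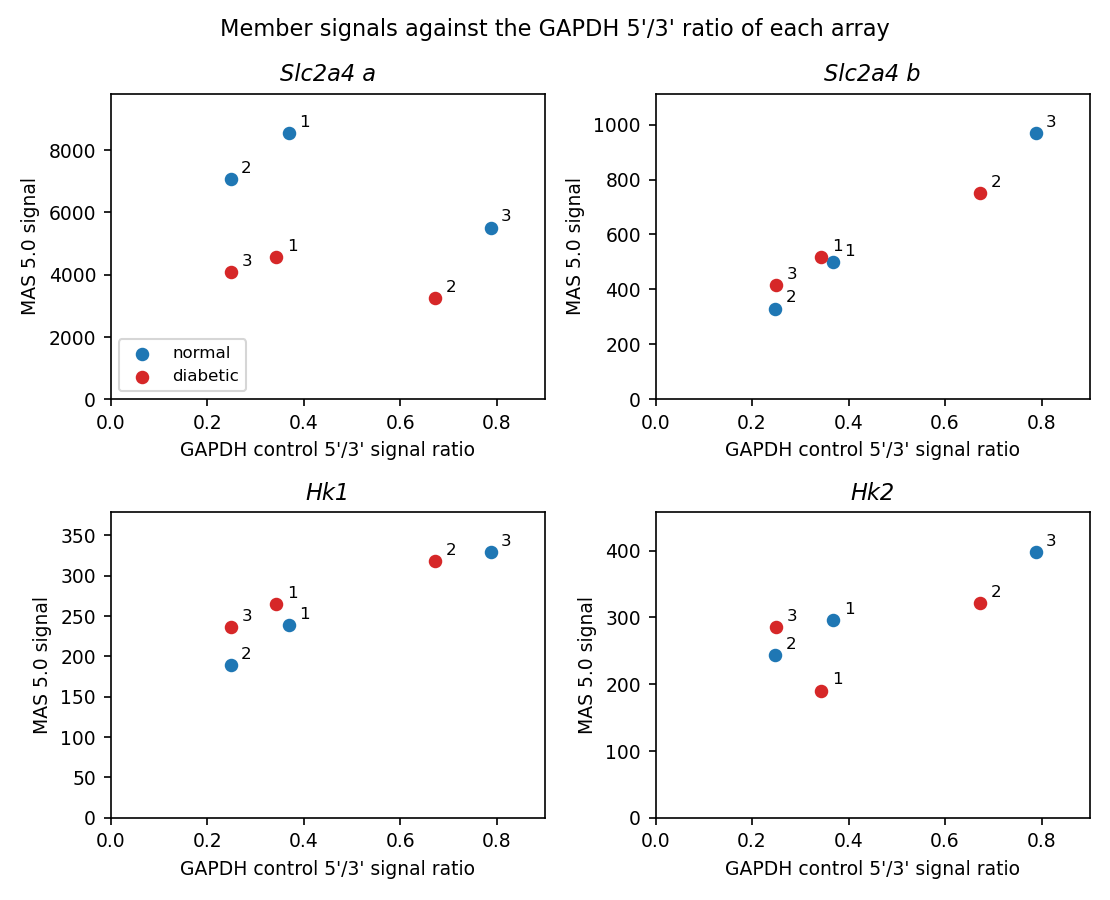
MAS 5.0 signal (linear axes from 0) of the brighter (a) and dimmer (b) Slc2a4 probe sets, Hk1 and Hk2 against the 5′/3′ signal ratio of the GAPDH controls on the same array; each point is 1 rat, blue normal and red diabetic, labelled by its number. Normal rat 3 and diabetic rat 2, at ratios of 0.788 and 0.673, hold the 2 highest signals of the dimmer Slc2a4 probe set, Hk1 and Hk2, and the lowest of the brighter Slc2a4 probe set within each group.

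Slc2a1, the basal transporter, was dim. Its probe set (1370848_at) read 153.5, 145.8 and 123.7 in normal and 114.4, 144.6 and 203.8 in diabetic rats. Diabetic rats held both the lowest and the highest of the 6 signals. Its log2 fold change was 0.09 (95% interval -0.49 to 0.68, adjusted p = 0.86). Within an array, the log2 ratio of the brighter Slc2a4 signal to Slc2a1 was 5.63 ± 0.16 in normal and 4.71 ± 0.53 in diabetic diaphragm (SD, n = 3), a difference of -0.91 with no overlap between the groups. The 2-sided exact permutation p was 0.1, the smallest that 3 against 3 can give, and 0.225 after adjustment over the 9 pairs of related members. A ratio of 2 probe sets shows unequal change only, since their signals do not rank the levels of the 2 transporters.

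Neither hexokinase separated the groups. Hk1 (1386929_at) read 239.1, 189.6 and 329.5 in normal and 264.4, 317.8 and 236.3 in diabetic rats, a log2 fold change of 0.14 (95% interval -0.38 to 0.65, adjusted p = 0.77). Hk2 (1369006_at) read 295.7, 244.1 and 398.2 in normal and 190.5, 321.9 and 285.6 in diabetic rats. Its log2 fold change was -0.24 (95% interval -0.79 to 0.32, adjusted p = 0.61), and its lowest signal was that of diabetic rat 1. Hexokinase I and II act on the same substrate, so their ratio was also compared. The log2 ratio of Hk2 to Hk1 was 0.31 ± 0.05 in the normal rats, the narrowest spread of any related pair there, and -0.06 ± 0.38 in the diabetic rats. The difference of -0.38 had an exact permutation p of 0.2 (adjusted p = 0.30 over the 9 pairs), with overlapping groups.

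The 3 hexokinase control probe sets, placed along the transcript, were near the bottom of the signal range on every array. The 3′ set read 6.6 to 66.6, the middle set 7.0 to 15.2 and the 5′ set 1.3 to 7.1 over the 6 rats. Their groups overlapped, and they add no usable reading of Hk1. None of the 6 comparisons among the 4 Hk1 probe sets separated the groups.

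Phosphofructokinase isoforms other than the muscle one were represented by Pfkl, the liver isoform, and Pfkp, the platelet isoform. Pfkp (1372182_at) read 180.0, 216.6 and 172.7 in normal and 236.2, 300.8 and 282.0 in diabetic rats. The lowest diabetic signal was above the highest normal one. The mean was 190 ± 23.5 in normal and 273.0 ± 33.2 in diabetic diaphragm (SD, n = 3), a ratio of 1.44. The log2 fold change of 0.52 (SE 0.19, 95% interval 0.09 to 0.95) did not pass after adjustment (adjusted p = 0.13). It was positive in every alternative fit, from 0.39 to 0.63, and its adjusted p was 0.115 or higher in each.

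Pfkl (1367743_at) read 78.1, 77.7 and 80.9 in normal and 84.6, 69.4 and 84.2 in diabetic rats. These signals lie below the filter, and without a filter its log2 fold change was 0.00 (95% interval -0.65 to 0.65). The authors list Pfkl among the genes with reduced expression on these arrays, while their PCR showed no fall. The probe set behind their array value was not identified here. Between the groups the log2 ratio of Pfkl to Pfkp differed by -0.52 without overlap (exact permutation p = 0.1, adjusted p = 0.225), with the Pfkl signal below the filter. The muscle isoform Pfkm is no member but carries most of this activity in muscle. Its brighter probe set (1367864_at) read 13759.1, 13319.5 and 14788.6 in normal and 10738.2, 8682.6 and 8461.2 in diabetic rats, and fell by 0.59 on the log2 scale (SE 0.14, adjusted p = 0.033). The Pfkm call was lost in 5 of the 6 fits that left out 1 array, with an adjusted p of up to 0.106, and held only without diabetic rat 1. Its dimmer probe set (1386961_at) differed by -0.41 on the log2 scale (SE 0.31, adjusted p = 0.47).

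Among the bifunctional enzymes, the groups did not overlap for Pfkfb1 alone. Its probe set (1369467_a_at) read 2715.0, 1917.1 and 1828.5 in normal and 1545.1, 1315.3 and 1290.2 in diabetic rats. No diabetic signal reached the lowest normal one. The mean was 2154 ± 488 in normal and 1384 ± 140 in diabetic diaphragm (SD, n = 3), or 1.56-fold lower. On the log2 scale this was -0.62 (SE 0.18, 95% interval -1.02 to -0.22) and did not pass at the threshold (adjusted p = 0.070). It stayed negative with each array left out, from -0.73 to -0.44, and with the GAPDH ratio as a covariate it was -0.63 (adjusted p = 0.060).

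Pfkfb3, the inducible form, had a wide spread. Its brighter probe set (1390391_at) read 1439.5, 328.6 and 831.6 in normal and 1056.0, 890.1 and 982.0 in diabetic rats. The normal rats lay on both sides of all the diabetic rats, with a coefficient of variation of 64.2% in normal against 8.52% in diabetic diaphragm. The log2 fold change was 0.41 (SE 0.41, 95% interval -0.51 to 1.33, adjusted p = 0.60), and without normal rat 2 it turned to -0.17. The dimmer Pfkfb3 probe set (1369794_a_at) read 42.9, 55.9 and 70.8 in normal and 57.1, 49.9 and 67.9 in diabetic rats. It was lowest in normal rat 1, where the brighter probe set was highest. The change did not differ between the 2 beyond their spread (exact permutation p = 0.7, adjusted p = 0.92).

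Pfkfb4 was measured by a probe set near the filter level (1389396_at), at 145.9, 140.9 and 205.5 in normal and 137.8, 73.7 and 162.8 in diabetic rats. The log2 fold change was -0.45 (95% interval -1.16 to 0.26, adjusted p = 0.43), and the lowest signal was that of diabetic rat 2. Its other probe set (1368719_at) read 5.0 to 13.1 over all rats. All 4 Pfkfb2 probe sets were dim. The brightest (1369400_a_at) read 94.7, 66.2 and 85.9 in normal and 98.4, 90.4 and 84.3 in diabetic rats, and the other 3 read 2.6 to 67.7. Without a filter the log2 fold changes of these 4 ran from -1.39 to 0.41, and the widest 95% interval was -3.66 to 0.87. The brightest had the narrowest interval, -0.50 to 0.82. The probe sets of Pfkfb2 did not agree in direction, with 2 above and 2 below 0.

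**Figure D3:**
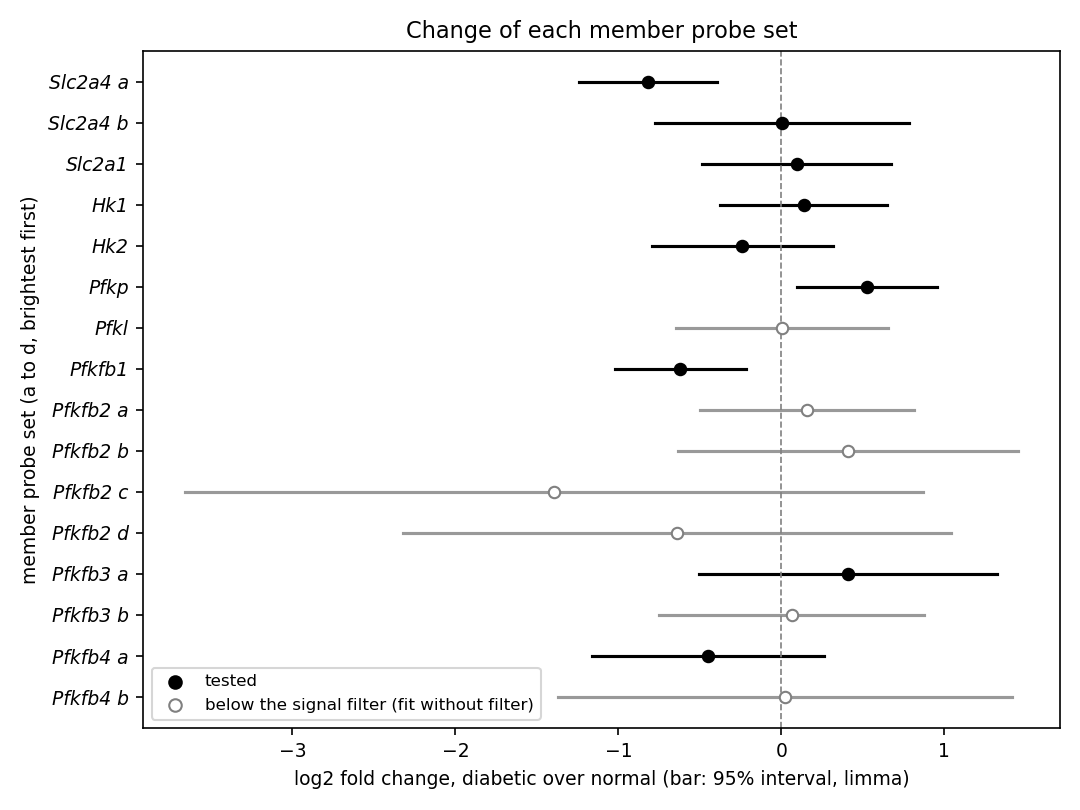
Log2 fold change (diabetic over normal) with its 95% interval from limma for the 16 ordinary member probe sets, 3 rats per group; filled points were tested and open points lay below the signal filter and come from a fit without one, and a to d order the probe sets of a gene from the brightest. The intervals of the brighter Slc2a4, Pfkfb1 and Pfkp leave out 0, and those of the dim Pfkfb2 probe sets reach to -3.66.

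Pfkfb1 was also compared with the other Pfkfb genes within each array, through the brightest probe set of each, which for Pfkfb2 lies below the filter. The log2 ratio of Pfkfb1 to Pfkfb2 went from 4.70 ± 0.25 in normal to 3.92 ± 0.06 in diabetic diaphragm (SD, n = 3), and that to Pfkfb3 from 1.53 ± 0.88 to 0.50 ± 0.09. Both ratios separated the groups, with differences of -0.78 and -1.03 and an exact permutation p of 0.1 each (adjusted p = 0.225). The ratio of Pfkfb1 to Pfkfb4 overlapped, with a difference of -0.17 (p = 0.7 by the exact permutation test). The 3 ratios among Pfkfb2, Pfkfb3 and Pfkfb4 overlapped as well, with exact permutation p of 0.2 to 0.7. Of the 9 related pairs, 4 separated the groups. Each of the 4 holds Slc2a4, Pfkfb1 or Pfkp, which already did so alone, and 2 of them hold a probe set below the filter. The share of all possible pairs that separate was not computed, so nothing is read from this count. None of the 15 pairs of probe sets of 1 gene did.

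**Figure D4:**
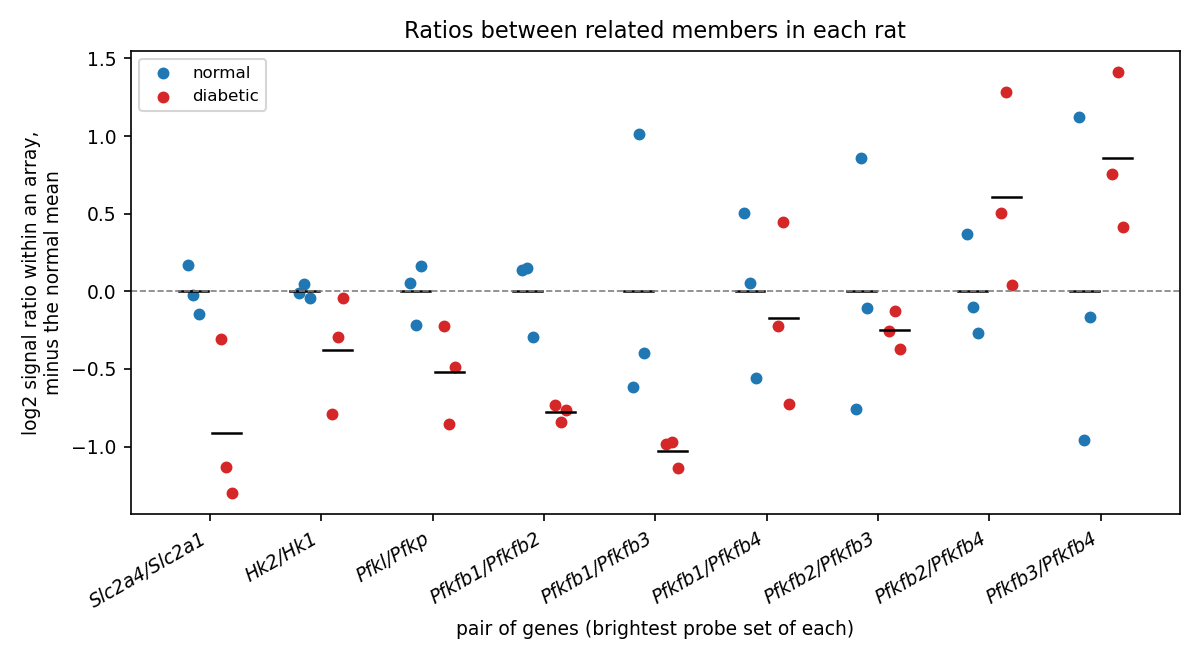
Log2 ratio of 2 signals within an array for the 9 pairs of related members, set to a normal mean of 0; each point is 1 rat (blue normal, red diabetic) and black lines are group means. Slc2a4 over Slc2a1, Pfkl over Pfkp, Pfkfb1 over Pfkfb2 and Pfkfb1 over Pfkfb3 lie lower in every diabetic rat than in any normal rat, by 0.91, 0.52, 0.78 and 1.03 on average.

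Promoter sequences of Pfkfb1 and Pfkp are shown because these 2 members separated the groups in opposite directions and have an entry in the RefSeq promoter table (build GRCr8), which held 9 of the 10 genes. The 250 bases before the start used there are printed 5′ to 3′ on the + strand, which carries both genes, and capitals mark matches on either strand to an E box (CANNTG), the letters of the myogenic and carbohydrate-response factors, and to a GC box (GGGCGG), the letters of the Sp family. Pfkfb1 lies at chrX:22941926-22942175 and Pfkp at chr17:68639563-68639812. The Pfkfb1 start in the table is 6138 bases past the first base of the annotated gene, so it is an internal start.
Pfkfb1: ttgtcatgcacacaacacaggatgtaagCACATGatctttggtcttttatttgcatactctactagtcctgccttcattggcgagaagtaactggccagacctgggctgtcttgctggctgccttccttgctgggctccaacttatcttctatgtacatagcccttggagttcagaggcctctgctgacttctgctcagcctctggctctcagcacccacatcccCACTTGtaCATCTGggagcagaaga
Pfkp: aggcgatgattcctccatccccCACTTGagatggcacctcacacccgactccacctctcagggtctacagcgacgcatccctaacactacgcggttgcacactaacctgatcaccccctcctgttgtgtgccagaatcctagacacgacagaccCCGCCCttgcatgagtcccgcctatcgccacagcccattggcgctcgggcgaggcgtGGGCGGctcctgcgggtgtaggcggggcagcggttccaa

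The Pfkfb1 window held 3 E boxes and no GC box, and the Pfkp window held 1 E box and 2 GC boxes. Neither held the hypoxia response core ACGTG or the forkhead core GTAAACA. Of all 33469 windows of this length, 65.5% held an E box, 30.5% a GC box, 16.6% ACGTG and 3.21% GTAAACA. These are letter matches and not measured sites.

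Other genes of the same pathway gave context, each through its brightest probe set. Of 6 tested transporters, hexokinase-like and fructose phosphate enzymes outside the members, Pfkm alone passed, and it fell. Slc2a3, the GLUT3 transporter, read 95.1 to 101.5 in normal and 113.7 to 136.9 in diabetic rats and did not pass. Of the 10 tested enzymes of glycolysis after fructose bisphosphate, 4 fell and 6 did not pass, with a median log2 fold change of -0.44 against 0.01 over all tested genes. Phosphoglycerate mutase 2 (Pgam2) fell 2.06-fold, lactate dehydrogenase A (Ldha) 2.03-fold, phosphoglycerate kinase 1 (Pgk1) 1.76-fold and muscle enolase (Eno3) 1.66-fold, with adjusted p of 0.011, 0.0046, 0.0059 and 0.011. These 4 passed with any 1 array left out. Without normal rat 3 and diabetic rat 2 together, Ldha alone passed.

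Of 13 tested genes of GLUT4 vesicles and their release, 2 fell and 11 did not pass, with a median log2 fold change of -0.15. Rab10, a small GTPase linked to GLUT4 vesicle delivery, read 5457.3, 4966.8 and 5123.4 in normal and 3606.8, 3490.7 and 3317.1 in diabetic rats, 1.49-fold lower (adjusted p = 0.028). Vamp3, a SNARE protein of recycling vesicles, fell 1.57-fold (adjusted p = 0.027). Both calls were lost whenever any 1 array was left out, with an adjusted p of up to 0.102 for Rab10 and 0.082 for Vamp3. Rab8a and Rab13, small GTPases of the same list, did not pass (log2 fold change -0.20 and 0.03, adjusted p = 0.51 and 0.95). Vamp2 and Stx4, the SNARE proteins of GLUT4 fusion in the classical scheme, did not pass either.

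Of 12 tested regulators of Slc2a4 and Hk2 transcription, 1 rose and 11 did not pass, with a median log2 fold change of 0.00. Closest to a call among the 11 was Myod1, a myogenic transcription factor, which read 249.3, 534.5 and 489.5 in normal and 134.4, 269.4 and 105.1 in diabetic rats, with overlap (log2 fold change -1.37, SE 0.37, adjusted p = 0.055). It was called lower with quantile normalization, with median scaling, with the GAPDH ratio as a covariate, without normal rat 1 and without diabetic rat 2. Foxo1, also uncalled, went the other way, at 133.1 to 152.6 in normal and 232.1, 203.9 and 577.8 in diabetic rats. Its groups did not overlap (log2 fold change 1.07, SE 0.34, adjusted p = 0.093). Mef2c, Prkaa2 and Srebf1 were lower on average, with overlap and no call. Their log2 fold changes were -0.56, -0.73 and -0.78 (adjusted p = 0.12, 0.16 and 0.17). Klf15, a Krüppel-like factor that activates Slc2a4 in muscle and fat, read 2302.3, 1921 and 1373.1 in normal and 3343.7, 2943.9 and 3774.6 in diabetic rats. It was 1.80-fold higher (log2 fold change 0.87, SE 0.20, adjusted p = 0.029). Of 9 tested genes of the insulin signal, 1 rose and 8 did not pass, with a median log2 fold change of 0.43 against 0.01 over all tested genes. That median was the value of Pik3r1 (SE 0.75, adjusted p = 0.77), which read 581 in diabetic rat 2 and 40.9 to 115.7 on the other arrays. Insr and Gsk3b, both uncalled, were higher in every diabetic rat than in any normal rat. Their log2 fold changes were 0.67 and 0.66 (adjusted p = 0.18 and 0.15). Such upward separation was found in 15.2% of all tested probe sets. Akt2 and Grb10 had log2 fold changes of -0.10 and -0.0012. Irs2, the insulin receptor substrate that is repressed by insulin, was 1.67-fold higher (log2 fold change 0.74, SE 0.16, adjusted p = 0.021). Both calls held only in the fit without normal rat 1 among those that left out 1 array, and the highest adjusted p was 0.091 for Klf15 and 0.070 for Irs2.

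Fibre-type and cell-type markers moved with these results in part. The summed signal of 6 fast-fibre markers was 96638 to 109492 in normal and 63158 to 79300 in diabetic rats, and 2 of the 6, Myh4 and Pvalb, fell. The summed signal of the 3 endothelial markers with a probe set was 1884 to 2159 in normal and 2552 to 2844 in diabetic rats, and 1 of the 3, Kdr, rose (adjusted p = 0.046). The Kdr call was lost with any 1 array left out. The mean of Kdr was 1002 in normal and 1581 in diabetic rats, against 485 and 557 for Pecam1 and 543 and 595 for Vwf. Pecam1 and Vwf overlapped between groups and did not pass (adjusted p = 0.53 and 0.68), so most of the difference in the sum was that of Kdr. No tested marker of skeletal muscle (4), slow fibres (5), red blood cells (2), adipocytes (2), macrophages (4) or Schwann cells and nerve (3) was called, and the summed signals of these lists overlapped between groups. S100b, a Schwann cell marker, was lower in every diabetic rat than in any normal rat (log2 fold change -0.83, SE 0.25, adjusted p = 0.077) and was called with the GAPDH ratio as a covariate (adjusted p = 0.029). No marker had a signal of 0, and Cdh5, Tek, Adipoq, Cd163 and Hba-a1 had no probe set with 1 gene here. The part of fibre types or endothelium in the changes of Slc2a4, Pfkfb1 and Pfkp was not tested.

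Over the 6 arrays, the named genes whose log2 signal followed the brighter Slc2a4 probe set most closely were Dnajc15 (Pearson r = 0.994), Chn1 (r = 0.984) and Lrpprc (r = 0.979). These were the 3 highest of all tested probe sets with a gene name, the 6 points share their arrays and scaling, and the values are a description. Dnajc15, a co-chaperone of the mitochondrial inner membrane, read 3377.6, 2919 and 2408.5 in normal and 1994.6, 1603.4 and 2013.1 in diabetic rats, with a log2 fold change of -0.63 (adjusted p = 0.056). Lrpprc, which stabilizes mitochondrial mRNAs, differed by -0.39 (adjusted p = 0.17), and Chn1 by -0.32 (adjusted p = 0.40), both on the log2 scale.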

How the data were processed

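Gene expression in the left costal hemidiaphragm of 3 normal and 3 diabetic rats was taken from the deposited values, which the authors made with MAS 5.0 from Affymetrix RAE 230A arrays. The authors summarized the oligonucleotide intensities of a probe set as 1 signal, also an intensity on a linear scale. For the software settings and the scaling target, the sources used here give nothing. Present and absent calls were not used.

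Signals under 1 (136 values, 0 of them in member probe sets) were raised to 1 before log2, and arrays were not normalized again. A filter removed the 57 control probe sets and those whose mean signal did not exceed the 40th percentile of the others (105.8). On the remaining 9519, lmFit and eBayes with a trend were run in limma 3.58.1 (R 4.3.3), and p-values were adjusted over all of them by the Benjamini-Hochberg method. The call was an adjusted p under 0.05. The number of arrays, with 4 residual degrees of freedom, limits the precision. The fit was checked on simulated data for the sign and size of changes larger than that of any member. This check does not cover changes of the size found here. A fold change divides the mean signals of the groups, and a log2 fold change is the difference of mean log2 signals. Ratios within an array were compared by 2-sided exact permutation tests over the 6 rats, which cannot give a p below 0.1.

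Gene names came from the platform annotation, in which 12783 probe sets have 1 gene, 312 several and 2771 none. Members and list genes were taken only from probe sets with 1 gene. The test, its adjustment and the shares over all tested probe sets were not limited in this way. Members were named with every probe set, and from each gene list up to 4 genes that passed with the largest log2 fold change, each through its brightest probe set. Cell type markers and the other genes whose values are given beside a result come from the same lists. Slc2a3, Vamp2, Stx4, Rab8a, Rab13, Myod1, Foxo1, Pik3r1, S100b, Alb and Ttr were chosen after their values were seen. So were Mef2c, Prkaa2, Srebf1, Insr, Gsk3b, Akt2 and Grb10. Members, lists and markers were chosen with earlier results of these data known. Alternatives were quantile or median scaling, offsets of 16 and 64, no filter or one at the 60th percentile, no trend, weights per array, a block for the replicate number, leaving out each array, other thresholds and averages over probe sets. Added after seeing the data were the GAPDH 5′/3′ ratio as a covariate and leaving out 2 arrays.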

Additional observations from a re-analysis of the deposited data

How the results depend on the processing

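The count of member probe sets called lower was 1 of 9. It became 2, with Pfkfb1 added, with array weights, at an adjusted p under 0.1, at an unadjusted p under 0.05 and by lack of overlap. It became 0 with no filter, with no trend in the variance prior, with arrays scaled to the same median, with genes as the mean of their probe sets, and without normal rat 3 and diabetic rat 2 together. With each array left out in turn it was 0 to 1. The count called higher was 0, and 1 (Pfkp) at an unadjusted p under 0.05 or by lack of overlap. For the brighter Slc2a4 probe set the direction held in all 17 alternatives (-0.98 to -0.67), and it was called in 9 of them, with an adjusted p of 0.064 with no filter, 0.064 with no trend and 0.058 with median scaling. Log2 fold changes of 5 uncalled member probe sets changed sign. That of the dimmer Slc2a4 probe set became -0.0042 with an offset of 64, -0.021 with quantile normalization and -0.094 from the group means, and was -0.35 to 0.42 with arrays left out. That of Slc2a1 became -0.019 with array weights and was -0.13 to 0.29 with arrays left out. With arrays left out, that of Hk1 was -0.052 to 0.35 and that of Pfkfb3 -0.17 to 0.90. That of Pfkfb4 became 0.063 without normal rat 3 and diabetic rat 2. The cause of these changes was not tested. With no filter Pfkm, Klf15, Eno3 and Kdr also lost their calls, with no trend Pfkm, Klf15, Rab10 and Kdr did, and with median scaling Pfkm did.

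Neither the labels nor the authors describe a pairing of the rats by replicate number. Same-numbered rats correlated at 0.098, -0.20 and -0.068 in their deviations from the group means. With 3 rats per group these values cannot show that no pairing existed. With the replicate block 1 member probe set was called lower, the brighter Slc2a4 (-0.82, adjusted p = 0.049), and 0 higher. Irs2, Klf15, Pfkm, Rab10, Vamp3 and Kdr lost their calls with it (adjusted p of 0.053 to 0.075). Normal rat 3 and diabetic rat 2 correlated best, at 0.20.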
